A study of Mus musculus with 8 samples.

Results

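The genes described here are 10 markers of monocytes and neutrophils, the circulating phagocytes of the myeloid lineage: Lyz2, Plac8, Ms4a6c, Ly6c2, Fcgr1, Cybb, S100a8, S100a9, Csf3r and Ngp. They were taken by name, as the probe sets annotated with that single symbol, and all 10 were measured, each by 1 probe set, among 21161 genes on the arrays. The samples were endothelial cells sorted from mouse livers by FACS as CD45- CD31+ CD146+ cells, and 2 groups of 4 arrays were compared. YFP+ cells are the marrow-derived ones and YFP- cells the resident ones. Every recipient was a C57BL\6N mouse that was irradiated at 8 weeks with 9 Gy, given as 2 doses of 4.5 Gy, and then received 5000 LSK cells (lineage-negative, Sca-1-positive, Kit-positive marrow progenitors) carrying YFP. Livers were taken 1 month later. YFP- cells come from irradiated chimeras too, so no array holds cells of an untreated liver. The labels do not name the promoter that drives YFP, and they do not say whether animals were pooled or whether same-numbered sorts share a mouse.

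Monocytes and neutrophils arise from a shared marrow progenitor and leave the marrow for the blood, from where they enter the liver sinusoids. Inflammatory monocytes of the mouse carry the surface protein Ly6C and the high-affinity IgG receptor, and they make lysozyme and the phagocyte NADPH oxidase. Neutrophils are packed with the calcium-binding proteins S100A8 and S100A9, respond to the growth factor G-CSF through Csf3r, and carry granules that are filled in a fixed order as the cell matures. Both cell types bear CD45 on their surface, which the sort was set to exclude. In sorted bulk RNA, fewer cells of a type and less RNA per cell cannot be told apart.

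Levels below are log2 values of the intensities that the authors normalized, and differences are YFP+ minus YFP-. Negative control probe sets were dimmer in YFP+ cells, with array medians between 103 and 113 intensity units, than in YFP- cells (between 119.5 and 128). Centring the arrays on these controls moves the median difference of all genes to 0.18. Plac8 lay above the 95th percentile of these controls on all 8 arrays and Ly6c2 on 1 YFP+ array. The other 8 genes lay above it on no array, as did 75.9% of all genes, so their levels are those of dim probe sets and their folds may be understated. Endothelial markers were bright in both groups (all 13 listed genes above that percentile on every array), with list means of 10.78 to 11.03 log2 on the YFP+ arrays and 11.30 to 11.35 log2 on the YFP- arrays. YFP+ replicate 3 had the lowest weight (0.313) when arrays were weighted by their fit, and the differences of the 10 markers without it are given below. Of the 10 markers, 5 (Lyz2, Ms4a6c, Cybb, S100a8 and Ngp) lay below the negative control median on all 4 YFP- arrays, as did 28.3% of all genes. So did the related genes Spi1, Rac2, Itgam, Ncf4, Ccr2, Cx3cr1, Ms4a6b, Ms4a6d, Ms4a3, Ctsg, Lyz1, Fcgr4, Cebpe and Ly6g. Their folds and differences are set against a level not above background and are fitted values only.

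Lyz2, Plac8 and Ms4a6c rose in YFP+ cells (3 of 10 genes, against 1.27% of all genes called higher), and none of the 10 genes fell (0.336% of all genes called lower; limma, adjusted p under 0.05). Without YFP+ replicate 3, 4 of 10 genes were called, Cybb being the fourth, and without YFP- replicate 3 or 4 Lyz2 was the 1 gene called. Over all 21161 genes, 269 were called higher with all arrays and 502 without YFP+ replicate 3. The numbers were 117 without YFP- replicate 3 and 111 without YFP- replicate 4. The differences without YFP+ replicate 3 were 1.6 for Lyz2, 1.62 for Plac8, 1.38 for Ms4a6c, 0.69 for Ly6c2, 0.03 for Fcgr1, 1.03 for Cybb, 0.40 for S100a8, 0.34 for S100a9, -0.20 for Csf3r and 0.02 for Ngp. None of the 4 neutrophil genes S100a8, S100a9, Csf3r and Ngp was called. Groups did not overlap, with YFP+ higher, for 3 of 10 genes (4.8% of all genes), and for none of the 10 was YFP+ lower on every array (3.82% of all genes; 8.62% in either direction). At an unadjusted limma p under 0.05, 5 of 10 were higher, the 3 called genes, Cybb and S100a9 (7.12% of all genes). The median difference over the 10 genes was 0.42, against 0.00188 over all genes tested, and 9 of 10 differences were positive, against 50.4% of all genes.

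**Figure D1:**
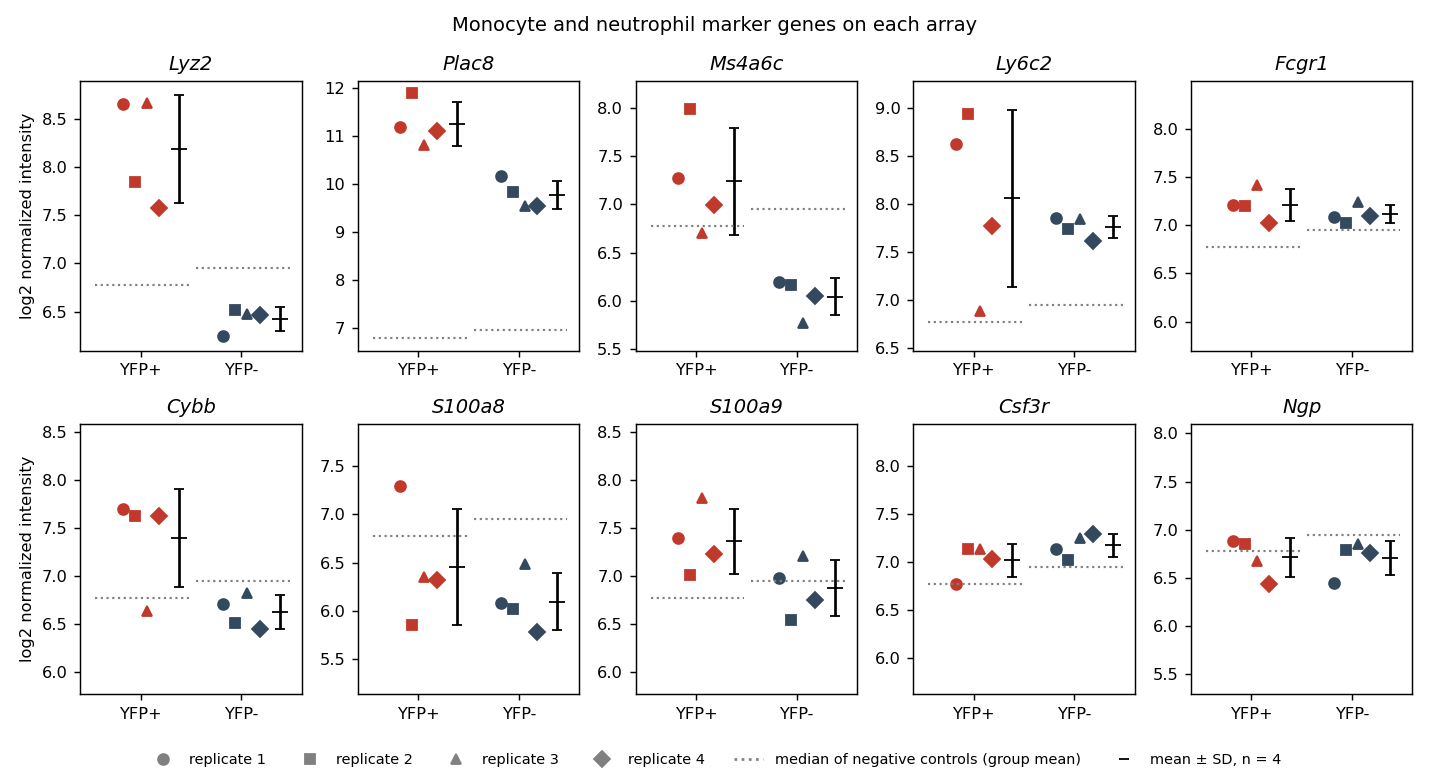
Log2 normalized intensity of the 10 marker genes on each array, YFP+ left and YFP- right, with symbols for replicates, bars for the mean ± SD (n = 4) and dotted lines for the mean of the arrays' negative control medians. Lyz2, Plac8 and Ms4a6c are higher on every YFP+ array than on any YFP- array, while the other 7 genes overlap.

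Lyz2 encodes lysozyme M, which cuts bacterial cell walls and is made in quantity by monocytes, macrophages and neutrophils. It stood at 8.66, 7.85, 8.66 and 7.58 log2 on YFP+ replicates 1 to 4, against 6.24, 6.52, 6.47 and 6.46 log2 on YFP- replicates 1 to 4. All 4 YFP+ values lay above all 4 YFP- values, and replicates 1 and 3 were well above replicates 2 and 4 within the YFP+ group. The mean was 8.19 ± 0.56 in YFP+ and 6.42 ± 0.12 log2 in YFP- cells (SD, n = 4), a 3.39-fold difference (log2 1.76, SE 0.24, limma adjusted p = 0.00753). On every YFP- array Lyz2 lay below the median of the negative controls. The authors' deposited table gives a fold of 3.57 from linear means, with an unadjusted p of 0.00789.

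Lyz2 lies next to Lyz1, a near-identical lysozyme gene of Paneth cells, and probes for one may take up transcripts of the other. Lyz1 stood at 6.66 to 7.15 log2 in YFP+ cells and 6.49 to 6.70 log2 in YFP- cells. The groups overlapped, and its difference of 0.39 was not called (limma adjusted p = 0.210).

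Plac8 encodes a small cysteine-rich protein that is abundant in monocytes, neutrophils and other blood cells. It stood at 11.18, 11.88, 10.81 and 11.10 log2 on YFP+ replicates 1 to 4, against 10.16, 9.83, 9.54 and 9.54 log2 on YFP- replicates 1 to 4. The groups did not overlap, and the gene was bright in the resident cells already. The mean was 11.24 ± 0.45 in YFP+ and 9.77 ± 0.29 log2 in YFP- cells (SD, n = 4), a 2.78-fold difference (log2 1.48, SE 0.23, limma adjusted p = 0.0134). The call ended narrowly without YFP- replicate 3 or 4 (limma adjusted p = 0.0507 and 0.0538).

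Ms4a6c belongs to a family of membrane proteins with 4 membrane-spanning segments, named after that number, and is used as a monocyte marker. It stood at 7.27, 7.99, 6.70 and 7.0 log2 on YFP+ replicates 1 to 4, against 6.20, 6.16, 5.77 and 6.05 log2 on YFP- replicates 1 to 4. The YFP+ values were all higher, with replicate 2 on top and replicate 3 at the bottom. The mean was 7.24 ± 0.55 in YFP+ and 6.04 ± 0.19 log2 in YFP- cells (SD, n = 4), a 2.29-fold difference (log2 1.2, SE 0.24, limma adjusted p = 0.0437). This call is the least secure of the 3: it ended without YFP+ replicate 1 or 4 (limma adjusted p = 0.0961 and 0.0741), without YFP- replicate 1, 2, 3 or 4 (0.0996, 0.123, 0.120 and 0.126) after quantile (0.0652) or cyclic loess normalization (0.0642), and with a pseudocount of 50 (0.0787). Of 16 measured genes of the Ms4a family, Ms4a6c was the 1 called, and the family's median difference was 0.18. Ms4a6b, its close relative, ranged from 6.70 to 9.64 log2 in YFP+ and from 6.08 to 6.42 log2 in YFP- cells, without passing the test (limma adjusted p = 0.137). Its difference of 1.70 was the largest of the family, while Ms4a6d, another relative, had one of 0.37 with overlapping groups (limma adjusted p = 0.475).

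Promoters of the genes are shown for Lyz2 and Ms4a6c, which were called and hold the motif searched, and, as a contrast, for S100a8. PU.1, the product of Spi1, is the transcription factor of the monocyte and neutrophil lineages and binds sites with the core GGAAGT, as other ETS factors do. The sequences are the 250 bases before each gene's start from RefSeq (GRCm38.p6), in the gene's own direction, and capitals mark GGAAGT or its reverse complement ACTTCC. Lyz2 is on the minus strand at chr10:117282273-117282522, Ms4a6c on the plus strand at chr19:11469118-11469367 and S100a8 on the plus strand at chr3:90668821-90669070.
Lyz2: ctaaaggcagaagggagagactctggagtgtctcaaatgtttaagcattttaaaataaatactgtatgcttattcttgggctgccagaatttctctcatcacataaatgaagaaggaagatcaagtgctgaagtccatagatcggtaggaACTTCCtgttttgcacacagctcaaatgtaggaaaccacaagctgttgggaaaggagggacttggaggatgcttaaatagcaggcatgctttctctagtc
Ms4a6c: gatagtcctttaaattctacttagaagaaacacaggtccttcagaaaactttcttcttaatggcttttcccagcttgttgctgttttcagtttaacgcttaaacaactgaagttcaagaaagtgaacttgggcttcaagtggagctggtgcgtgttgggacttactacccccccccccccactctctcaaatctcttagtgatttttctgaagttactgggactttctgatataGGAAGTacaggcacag
S100a8: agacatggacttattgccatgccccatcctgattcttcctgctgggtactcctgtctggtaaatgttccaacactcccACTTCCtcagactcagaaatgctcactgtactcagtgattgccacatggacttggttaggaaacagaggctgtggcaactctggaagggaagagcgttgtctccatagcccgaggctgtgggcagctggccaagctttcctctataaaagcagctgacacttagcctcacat
The motif was found on either strand in the first listed promoter of 6 of 10 genes, namely Lyz2, Ms4a6c, Ly6c2, Fcgr1, S100a8 and S100a9, and in 19.7% of 32851 promoters of the same length. It occurs once in each of the 3 printed windows, and neither listed promoter of Plac8 holds it. A C/EBP motif, TTGCNNAA on either strand, was found in the first listed promoter of S100a9 and Ngp, 2 of 10 genes, and in 9.56% of all promoters. Neither of these 2 genes was called, and the second listed promoter of Plac8 holds 1 C/EBP match. The motifs were chosen after the values were known, and a match is a description of letters and not of binding. For GGAAGT, genes with and without a match stand on each side of the test.

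Cybb encodes gp91phox, the catalytic subunit of the phagocyte NADPH oxidase, which makes superoxide. It stood at 7.70, 7.63, 6.63 and 7.63 log2 on YFP+ replicates 1 to 4, against 6.71, 6.51, 6.83 and 6.45 log2 on YFP- replicates 1 to 4. On 3 YFP+ arrays it was above all YFP- arrays, while replicate 3 fell among the YFP- values. The difference of 0.77 (SE 0.23) was not called (limma adjusted p = 0.147), and without YFP+ replicate 3 it was 1.03 and passed (limma adjusted p = 0.00303). The authors' deposited table gives an unadjusted p of 0.0271 for it.

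All 6 measured genes of the complex had positive differences (median 1.05), as had 50.4% of all genes. For 5 of the 6 the groups did not overlap, with YFP+ higher (4.8% of all genes), and 1 was called (1.27% of all genes called higher). That gene, Rac2, the small GTPase of blood cells that switches the enzyme on, was 6.24-fold higher (limma adjusted p = 0.0164). Its YFP+ values were 9.40, 10.90, 8.24 and 9.35 log2, against 6.87, 6.91, 6.79 and 6.74 log2 in YFP- cells, and its call ended without any 1 YFP- array (limma adjusted p = 0.0560 to 0.0595). The cytosolic subunits Ncf4 and Ncf1 had differences of 1.13 and 0.96 (limma adjusted p = 0.123 and 0.173), and both passed without YFP+ replicate 3 (limma adjusted p = 0.0259 and 0.0479). Cyba, the membrane partner of Cybb, which is also made outside blood cells, stood at 10.35 to 10.70 log2 in YFP+ and 9.93 to 10.33 log2 in YFP- cells (limma adjusted p = 0.185).

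Ly6c2 encodes one of a pair of Ly6C proteins and marks inflammatory monocytes. It stood at 8.63, 8.94, 6.89 and 7.77 log2 on YFP+ replicates 1 to 4, against 7.85, 7.74, 7.84 and 7.61 log2 on YFP- replicates 1 to 4. YFP+ replicates 1 and 2 were above the YFP- arrays and replicate 3 was below all of them, so that the YFP+ SD was 0.92, against 0.11 in YFP- cells (n = 4). The difference was 0.30 with a 95% interval of -0.52 to 1.12 (limma adjusted p = 0.816), and single arrays moved it, to 0.69 without YFP+ replicate 3, 0.11 without replicate 1 and 0.0040 without replicate 2. Its near-identical neighbour Ly6c1, which endothelial cells express, ranged from 8.44 to 9.33 log2 in YFP+ and from 8.18 to 8.76 log2 in YFP- cells (limma adjusted p = 0.487), and these probes may not separate the transcripts of the pair. None of 15 measured Ly6 genes was called (median difference 0.07), including the neutrophil marker gene Ly6g at 6.01 to 6.63 log2 in YFP+ and 6.07 to 6.44 log2 in YFP- cells.

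Fcgr1 encodes CD64, the high-affinity IgG receptor of monocytes and macrophages. It stood at 7.21, 7.20, 7.42 and 7.02 log2 on YFP+ replicates 1 to 4, against 7.09, 7.03, 7.25 and 7.10 log2 on YFP- replicates 1 to 4. The groups overlapped, and the difference was 0.10 with a 95% interval of -0.17 to 0.37 (limma adjusted p = 0.811). None of the 5 measured genes of the Fc gamma receptor list, which includes the signalling chain gene Fcer1g, was called. Fcgr2b, the inhibitory receptor that sinusoidal endothelium is known to express, was bright in both groups, at 11.93 to 12.15 log2 in YFP+ and 12.18 to 12.30 log2 in YFP- cells (difference -0.21, limma adjusted p = 0.447). Fcgr3 had a difference of 0.39, Fcgr4 of 0.41 and the shared signalling chain gene Fcer1g of 0.57 (limma adjusted p = 0.563, 0.166 and 0.407).

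**Figure D2:**
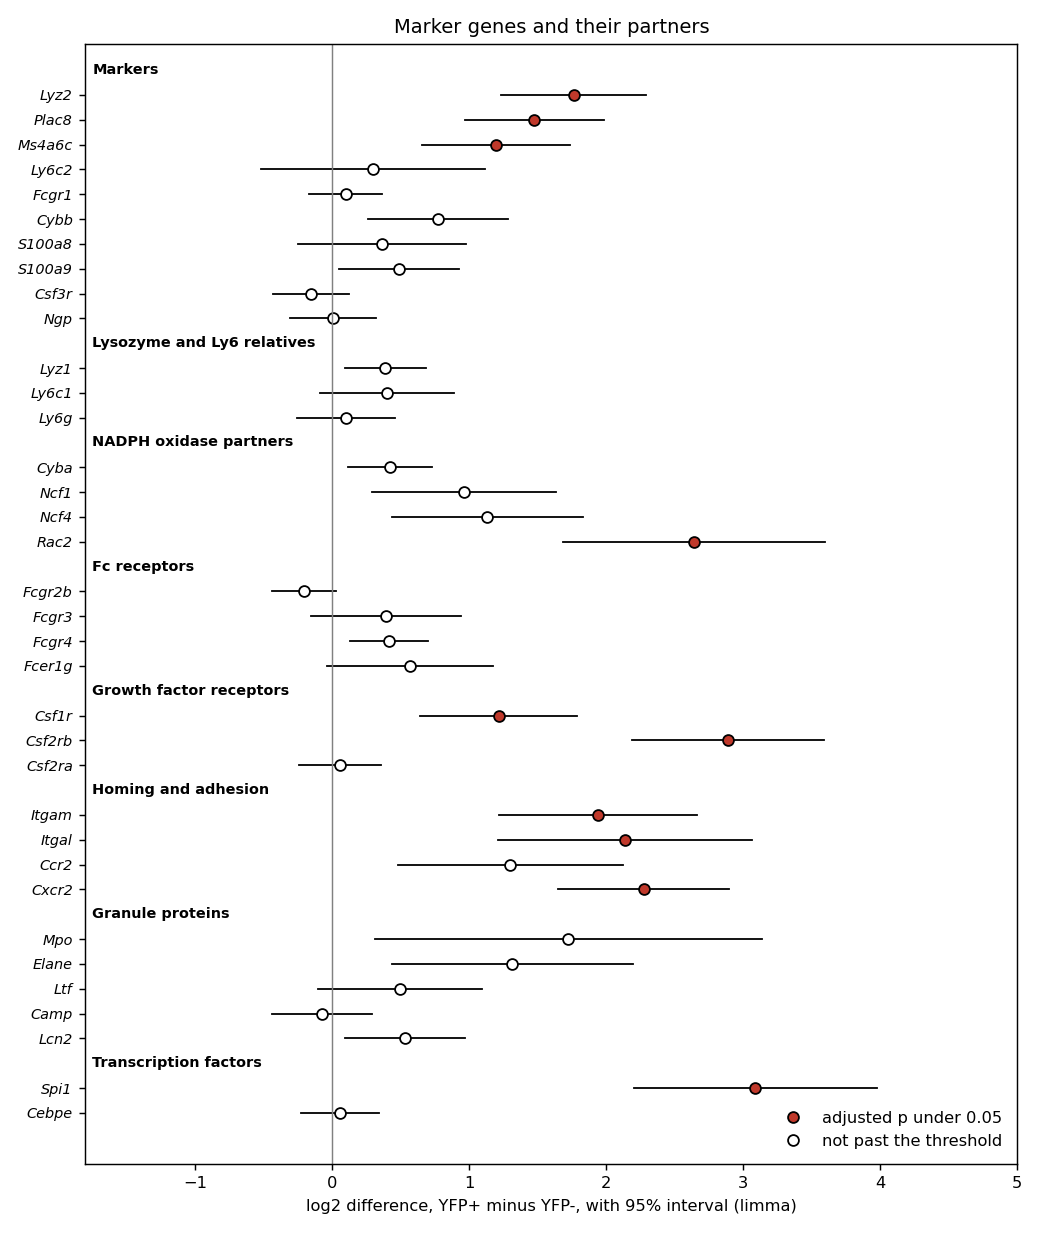
Log2 differences (YFP+ minus YFP-) with 95% intervals from limma for the 10 marker genes and for related genes, grouped by role, with filled points for an adjusted p under 0.05. Lyz2, Plac8 and Ms4a6c are filled among the markers, and Rac2, Csf1r, Csf2rb, Itgam, Itgal, Cxcr2 and Spi1 among the related genes.

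S100a8 and S100a9 encode the subunits of calprotectin, among the most abundant proteins of neutrophils and also made by monocytes. S100a8 stood at 7.30, 5.85, 6.35 and 6.32 log2 on YFP+ replicates 1 to 4, against 6.08, 6.02, 6.49 and 5.78 log2 on YFP- replicates 1 to 4. Replicate 1 was the high YFP+ array, and S100a8 exceeded the median of the negative controls there and on no other array. The difference was 0.36 with a 95% interval of -0.25 to 0.98 (limma adjusted p = 0.661), against 0.08 without YFP+ replicate 1 and 0.56 without YFP+ replicate 2.

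S100a9 stood at 7.40, 7.01, 7.81 and 7.23 log2 on YFP+ replicates 1 to 4, against 6.98, 6.54, 7.21 and 6.75 log2 on YFP- replicates 1 to 4. Replicate 3 was the highest and replicate 2 the lowest YFP+ array, and the groups overlapped. The difference was 0.49 with a 95% interval of 0.05 to 0.92 (limma unadjusted p = 0.0320, adjusted p = 0.302). Of 16 measured S100 genes none was called, 15 had positive differences (50.4% of all genes) and the median was 0.20.

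Csf3r encodes the receptor for G-CSF, the growth factor of neutrophils. It stood at 6.77, 7.13, 7.14 and 7.03 log2 on YFP+ replicates 1 to 4, against 7.13, 7.02, 7.24 and 7.29 log2 on YFP- replicates 1 to 4. The values overlapped, and it was the 1 marker gene with a negative difference, -0.16 with a 95% interval of -0.43 to 0.12 (limma adjusted p = 0.686), which was 0.02 when arrays were centred on their negative controls.

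Receptors for other myeloid growth factors held 2 called genes. Csf2rb, the shared chain of the receptors for GM-CSF, IL-3 and IL-5, was 7.42-fold higher in YFP+ cells, at 10.36, 11.32, 9.49 and 10.60 log2, against 7.69, 7.47, 7.29 and 7.76 log2 in YFP- cells (limma adjusted p = 0.00317). Csf1r, the receptor of monocytes and macrophages, was 2.32-fold higher (limma adjusted p = 0.0494), a call that ended after quantile (0.0634) or cyclic loess normalization (0.0659), and without each array in turn other than YFP+ replicate 3 (0.101 to 0.145). Csf2ra, the chain particular to GM-CSF, ranged from 6.72 to 7.26 log2 in YFP+ and from 6.81 to 7.01 log2 in YFP- cells and was not called. In all, 2 of 6 measured growth factor receptor genes were called higher (1.27% of all genes).

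Ngp encodes neutrophilic granule protein, stored in the specific granules of developing neutrophils. It stood at 6.88, 6.85, 6.68 and 6.44 log2 on YFP+ replicates 1 to 4, against 6.44, 6.78, 6.85 and 6.75 log2 on YFP- replicates 1 to 4. The ranges nearly coincided, the difference was 0.00445 and its 95% interval ran from -0.31 to 0.32 (limma adjusted p = 0.994). Ngp lay below the negative control median on all 4 YFP- arrays and above it on 2 YFP+ arrays. At this level the interval does not bound a change in its RNA.

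Other granule genes gave the following values. None of 5 specific granule genes was called (median difference 0.06): Camp, the cathelicidin gene, had a difference of -0.07, Ltf, the lactoferrin gene, of 0.50 and Lcn2, the lipocalin gene, of 0.53 (limma adjusted p = 0.918, 0.483 and 0.251), and Cebpe, the factor that drives specific granule genes, had one of 0.06. Azurophil granules are filled earlier, in promyelocytes, and none of their 5 genes was called with all arrays (median difference 0.74). Mpo, the myeloperoxidase gene, stood at 9.20, 10.32, 7.23 and 6.98 log2 on YFP+ replicates 1 to 4, against 6.28, 6.74, 6.73 and 7.07 log2 on YFP- replicates 1 to 4 (limma adjusted p = 0.247). Elane, the neutrophil elastase gene, stood at 8.78, 9.61, 7.48 and 7.76 log2 on the YFP+ arrays, against 7.38, 6.98, 6.88 and 7.13 log2 on the YFP- arrays (limma adjusted p = 0.154), and its difference of 1.32 was 1.62 and passed without YFP+ replicate 3 (limma adjusted p = 0.0410). Both were high on YFP+ replicates 1 and 2, and on YFP+ replicates 3 and 4 they were near or, for Mpo on replicate 4, below the highest YFP- value. Of the list's other genes, Ctsg had a difference of 0.74, Ms4a3 of 0.18 and Prtn3 of 0.05 (limma adjusted p = 0.326, 0.782 and 0.957). On YFP+ replicate 1, Prtn3 (7.30 log2) and Ms4a3 (6.45 log2) lay below every YFP- array.

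Receptors of homing and adhesion were not a list of their own, and the genes named here stand on the monocyte, patrolling monocyte and mature neutrophil lists. Some of them were called higher, against 1.27% of all genes. Cxcr2, the receptor that draws neutrophils to chemokines, was 4.84-fold higher, at 8.33, 9.97, 8.99 and 9.32 log2 on YFP+ replicates 1 to 4, against 6.90, 6.99, 6.79 and 6.84 log2 in YFP- cells (limma adjusted p = 0.00524). Itgam, the CD11b integrin gene, was 3.84-fold and Itgal, the CD11a integrin gene, 4.40-fold higher (limma adjusted p = 0.0186 and 0.0376). Both calls ended without YFP+ replicate 4 or any 1 YFP- array (0.0565 to 0.0662 for Itgam and 0.0829 to 0.130 for Itgal). The Itgal call also ended without YFP+ replicate 1 (0.0872). Ccr2, the chemokine receptor that leads monocytes out of the marrow, had a difference of 1.30 that did not pass (limma adjusted p = 0.131), and it passed at 1.66 without YFP+ replicate 3 (0.0119). Cx3cr1, a chemokine receptor gene of the patrolling monocyte list, had a difference of 0.09 and overlapping groups (limma adjusted p = 0.834).

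Counted over whole lists, 5 of 17 measured monocyte genes were called higher (Lyz2, Plac8, Ms4a6c and Itgam among them; median difference 0.51), 1 of 8 patrolling monocyte genes (Itgal; 0.31) and 1 of 13 mature neutrophil genes (Cxcr2; 0.16), with no gene called lower on these lists. Over all genes 1.61% were called in either direction. Over the 13 myeloid lists together, 11 of 111 genes were called, against 20 without YFP+ replicate 3 and 5 to 7 without YFP+ replicate 4 or any 1 YFP- array. Genes called higher over the whole table numbered 269, 502 and 107 to 147 in the same settings. The lists were chosen with earlier results of these data known, and a difference between lists was not tested. Of 9 measured myeloid transcription factor genes, Spi1 was the 1 called, with a fitted 8.50-fold difference over YFP- cells, where it was not above background (limma adjusted p = 0.00646), while the list's median difference was -0.10.

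**Figure D3:**
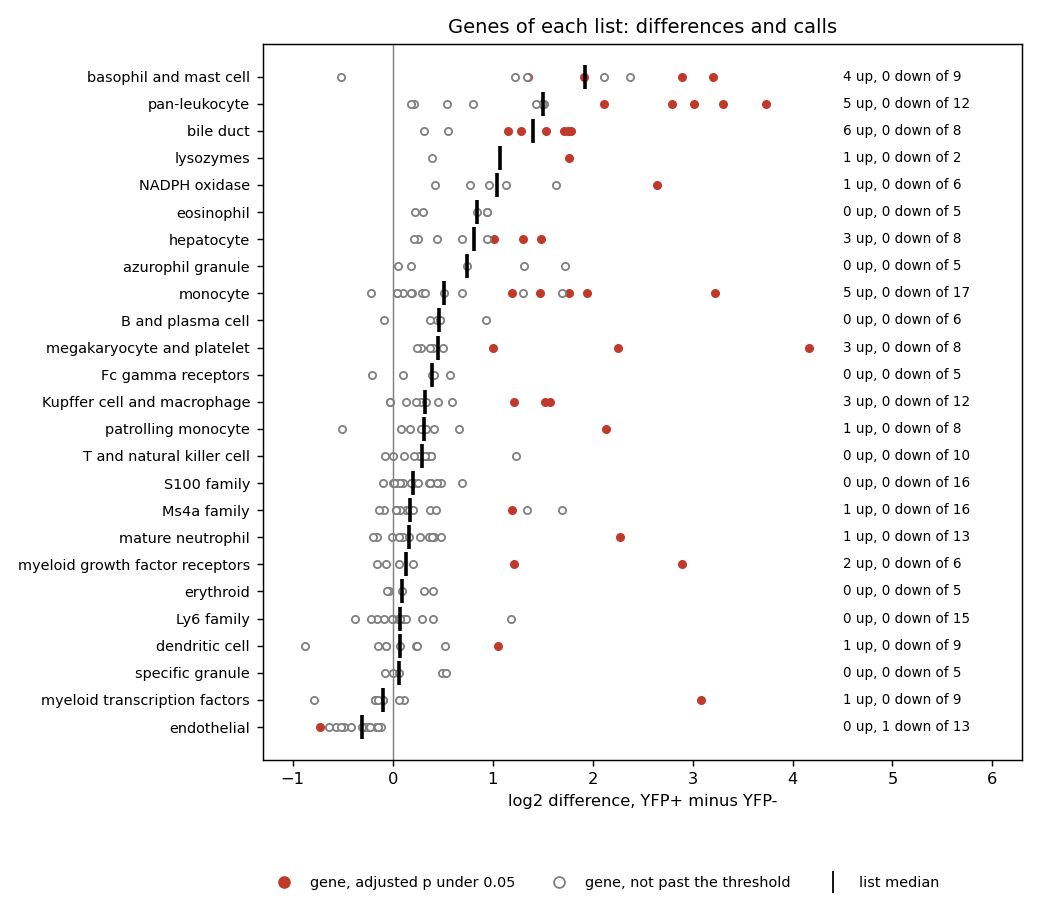
Log2 differences (YFP+ minus YFP-) of the genes of each list, one row per list, with filled points for genes past an adjusted p of 0.05, a bar for the list median and the counts of called and measured genes at the right. The monocyte list has 5 filled points of 17, the mature neutrophil list 1 of 13, and the basophil and mast cell list has the highest median, 1.92.

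Plac8, Ms4a6c and Ly6c2 were highest on YFP+ replicate 2 and lowest on replicate 3, as were the means of the pan-leukocyte list (8.73, 9.81, 8.10 and 8.89 log2 on YFP+ replicates 1 to 4), the basophil and mast cell list (9.60, 10.78, 8.54 and 9.25 log2) and the NADPH oxidase list (8.55, 9.57, 7.99 and 8.87 log2). The hepatocyte list, which is not of blood cells, had the same order (8.67, 9.15, 8.38 and 8.98 log2). So had the Kupffer cell and macrophage list and the eosinophil list, while the bile duct mean was highest on replicate 1 and lowest on replicate 2. Lyz2 was at its highest on replicates 1 and 3 and S100a9 on replicate 3, the array with the lowest pan-leukocyte mean. S100a8 was lowest on replicate 2. On all 10 genes the YFP+ SD exceeded the YFP- SD, as it did for 68.5% of all genes.

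Markers of other cell types moved as well, among them blood cells that bear CD45 and that the CD45- gate was set to remove. The shares over all genes were 1.27% called higher and 0.336% called lower. The pan-leukocyte mean was 8.10 to 9.81 log2 on YFP+ arrays and 7.02 to 7.20 log2 on YFP- arrays, and 5 of its 12 measured genes were called higher in YFP+ cells, although Ptprc, the gene of CD45, was not (limma adjusted p = 0.181). Without YFP+ replicate 3 the Ptprc difference of 1.51 was 2.04 and passed (limma adjusted p = 0.00758). Of the basophil and mast cell list 4 of 9 genes were called (Mcpt8, Fcer1a, Hdc and Cd200r3), with list means of 8.54 to 10.78 log2 on YFP+ and 7.67 to 7.85 log2 on YFP- arrays. Of the Kupffer cell and macrophage list 3 of 12 were called (Cd5l, C1qa and Csf1r), with means of 7.29 to 7.72 log2 on YFP+ and 6.83 to 7.10 log2 on YFP- arrays. Among its genes not called were Clec4f (difference 0.32), Vsig4 (0.28) and Timd4 (-0.02). Timd4 lay above the negative control median on no array. No gene was called on the lists of T and natural killer cells (10 measured), B and plasma cells (6) and eosinophils (5). Of the megakaryocyte and platelet list 3 of 8 genes were called (Ppbp, Pf4 and Gp6) and of the bile duct list 6 of 8. Called genes also stood on the hepatocyte list (Alb, Ttr and Ambp, 3 of 8) and the dendritic cell list (H2-Ab1, 1 of 9), and none of 5 erythroid genes was called. Of the endothelial list 1 of 13 was called, Tek, which was lower. All 13 had negative differences (median -0.31), whereas 50.4% of all genes had positive ones. For 9 of the 13, every YFP+ array lay below every YFP- array (3.82% of all genes). Several of the calls on these cell type lists ended when 1 array was left out. Calls over all genes fell too without any 1 YFP- array. There were 107 to 124 higher (269 with all arrays) and 8 to 23 lower (71). Without any 1 YFP- array, the calls of Mcpt8 (limma adjusted p = 0.0754 to 0.0866), Hdc (0.0569 to 0.0722), Cd200r3 (0.0595 to 0.0686), Gp6 (0.0507 to 0.0765) and Tek (0.0565 to 0.0802) ended, and that of C1qa ended without YFP- replicate 1, 3 or 4 (0.0595 to 0.0645). Without YFP+ replicate 1 the calls of Mcpt8 (0.0749), Cd200r3 (0.0586), Gp6 (0.0631) and C1qa (0.0548) ended, and without YFP+ replicate 4 those of Mcpt8 (0.0575), Cd200r3 (0.0530) and Hdc (0.0606). The part of each of these in the values of the 10 markers was not tested.

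**Figure D4:**
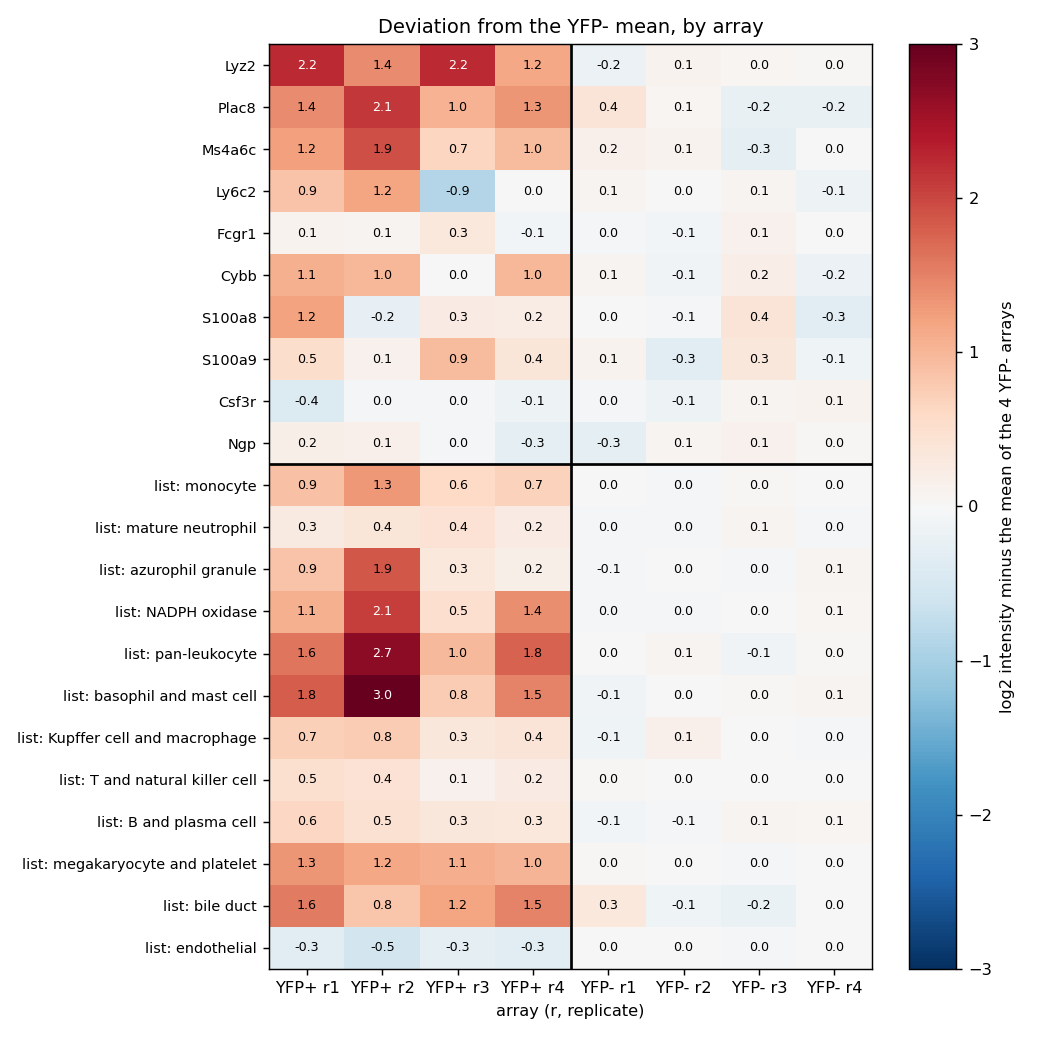
Log2 intensity minus the mean of the 4 YFP- arrays for the 10 marker genes (above the line) and for list means (below it), one column per array, YFP+ left. YFP+ replicate 2 has the highest values for Plac8, Ms4a6c, Ly6c2 and the pan-leukocyte and basophil lists, while Lyz2 is highest on replicates 1 and 3.

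For each of the 3 called markers, the genes with the most similar pattern over the 8 arrays were found by the root-mean-square difference of log2 values, each gene centred on its own mean. Predicted genes (symbols of Gm with digits, Rik or LOC) were passed over, so a nearer predicted gene would not appear. Nearest to Lyz2, which itself varied by a root mean square of 0.95, were ND3 (0.21), a mitochondrially encoded subunit of the respiratory chain, Ugt2b34 (0.27), a glucuronosyltransferase gene, and Slc2a3 (0.32), a glucose transporter gene. Nearest to Plac8 (0.81) were the immediate early gene Ier2 (0.17), Ms4a6c (0.20) and the phospholipase gene Pla2g4a (0.22). Nearest to Ms4a6c (0.70) were Lsp1 (0.14), a cytoskeletal protein of leukocytes, Eya2 (0.14) and Lat (0.16), an adaptor of T cell and mast cell receptor signalling. Neither Plac8 nor Ms4a6c was among the 3 genes nearest to Lyz2. Eya2 and Lat were not called (limma adjusted p = 0.0956 and 0.0773).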

How the data were processed

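Affymetrix arrays measured RNA of 4 YFP+ and 4 YFP- sorts, for which the labels' protocols give 100 pg of RNA per sort and a Pico kit for labelling. The values that the authors deposited are linear intensities, already normalized. For the array model, the software and the annotation build, the sources used here give nothing. The deposited p-value and fold ratio of the second table, per the file headers, come from a test that is not named and from the linear group means; both tables held identical values for all 28838 shared entries.

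Intensities were log2 transformed with no further normalization. Probe sets with a single symbol were kept (21371), symbols were updated through Entrez numbers to RefSeq GRCm38.p6, and the brightest probe set per gene was used, which gave 21161 genes. Groups were compared with limma 3.58.1 in R 4.3.3 (lmFit, eBayes, unpaired, two-sided), with p-values adjusted by Benjamini-Hochberg over the whole table and called under 0.05. The labels call the 4 arrays of each group biological replicates, without saying whether these were separate mice or pools. On data simulated for this comparison (21161 genes), 4%, 62%, 100% and 100% of genes changed by 0.5, 1, 2 and 3 log2 were recovered, with 7 false among 140 calls. The simulation gave both groups of a gene the same SD, whereas in the data the YFP+ SD was the larger for all 10 markers. The number of arrays limits the precision.

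The marker genes and lists were chosen with earlier results of these data known. The rule for named genes took the 10 markers, called genes of the 13 myeloid lists, the markers' paralogues and complex partners, up to 3 genes of each other cell type list with the smallest adjusted p, and the 3 genes most like each called marker; Csf2ra, Ms4a6b, Clec4f, Timd4, Vsig4 and Mcpt8 were named beyond it, after their values were seen. Alternatives were the replicate block, quantile and cyclic loess normalization, omission of dim genes, robust and trended eBayes, a pseudocount of 50, treat, array weights, every probe set tested separately, the mean of probe sets, leaving out each array, and, added after results were seen, centring on the negative controls. Some results are not reported here.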

Additional observations from a re-analysis of the deposited data

Results flagged for a closer look

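Among 72 genes examined in both groups (144 groups of 4 arrays), 5 values lay far from the other 3 arrays of their group, against about 1 in 20 groups by chance. Cybb was at 6.63 log2 on YFP+ replicate 3, against 7.63 to 7.70 on the other YFP+ arrays, and the IgG receptor gene Fcgr3 was at 10.64 log2 on the same array, against 11.59 to 11.67. On YFP- arrays, Dock2 was at 6.65 log2 on replicate 4 (others 6.45 to 6.47), Siglecf at 6.97 log2 on replicate 2 (others 6.39 to 6.42) and Pax5 at 6.73 log2 on replicate 1 (others 6.94 to 6.96).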

How the results depend on the processing

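Lyz2 stayed called under all 19 alternatives run for it, with differences of 1.34 to 1.97. Plac8 (1.26 to 1.65) lost its call in 2 of 20 and Ms4a6c (0.81 to 1.38) in 10 of 19. Cybb was called with array weights, without YFP+ replicate 3 and with negative control centring. With dim genes left out, 3364 genes and 1 marker, Plac8, were tested; it stayed called. Without each array in turn, 1 to 4 markers were called higher (1, Lyz2, without YFP- replicate 3 or 4), 107 to 502 genes higher and 8 to 134 lower over all genes, and 5 to 20 of the 111 genes on the myeloid lists (11 with all arrays). Over all genes, 269 were higher and 71 lower with all arrays; 519 and 176 with array weights, 128 and 118 after omission of dim genes, 112 and 3 with treat, and 747 and 26 with negative control centring, which moves the median of all genes by 0.18. Lower genes numbered 37 with the replicate block and 39 after cyclic loess. The cause was not tested. Same-numbered arrays deviated together with correlations of 0.159, 0.0194, 0.0999 and 0.0781, and for 3 of the 4 YFP+ arrays the best-correlated YFP- array had the same number, a hint from the data that does not settle the pairing. The block (replicate number as a term) kept 3 markers called, and Itgal (limma adjusted p = 0.0685) and Csf1r (0.0618) were not called with it. Differences near 0 changed sign: Ngp was -0.0215 after quantile and -0.0209 after cyclic loess normalization, -0.00798 with array weights and -0.0832 to 0.0951 without each array in turn; Csf3r was 0.0210 and Camp 0.104 with negative control centring. Without each array in turn, Camp was -0.196 to 0.0572 and Cebpe -0.0230 to 0.150.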
